A study of Mus musculus with 24 samples.

Results

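The genes described here mark brain tissue that borders the hypothalamus: thalamus, cerebral cortex and striatum, with 3 Zic transcription factors kept as a group of their own. They were taken from a list of 29 gene symbols, each matched to probe sets that the array annotation assigns to that symbol alone. For a symbol with several such probe sets, the one with the highest mean over all arrays was used. The list matched 27 genes of the 19937 genes measured: 12 thalamus genes, 8 cortex genes, 4 striatum genes and the 3 Zic genes. Bhlhe22 (cortex) and Adora2a (striatum) were not analysed here. The study measured total RNA from whole hypothalamus of male mice of 2 inbred strains, BPH/2J, labelled hypertensive, and BPN/3J, labelled normotensive. Mice were 6 or 26 weeks old, each of the 4 groups had 6 mice, no samples were pooled, and tissue was taken when blood pressure was at its daily peak. The labels name no treatment beyond standard housing and no engineered allele. A strain difference compares 2 inbred lines that differ at many loci, so blood pressure and strain cannot be told apart.

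The hypothalamus lies below the thalamus, behind the septum and near the striatum, so the plane of a dissection can take in or leave out some of these tissues. Thalamic relay nuclei are built from excitatory neurons whose identity depends on transcription factors such as GBX2, TCF7L2, LEF1 and RORA. Excitatory neurons of the cortex carry NEUROD, TBR1 and EMX factors and the vesicular glutamate transporter encoded by Slc17a7, which some thalamic neurons also use. Medium spiny neurons of the striatum are rich in the signalling proteins encoded by Ppp1r1b, Pde10a, Rgs9 and Gpr6. Few of these genes are exclusive to 1 region. In a piece of bulk tissue, fewer cells of a type and less RNA per cell cannot be told apart.

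All levels below are log2 values after RMA, an array normalisation. Their median over probe sets was 5.89 to 6.09 per array, and 0 values were missing. Correlations between arrays of a group over all genes were 0.984 to 0.997. Depth does not apply to arrays, and the 6 arrays per group limit the precision. For the labelled tissue, the mean of 21 hypothalamus genes on an array was between 6.93 and 8.33. With no other tissue measured for comparison, this level cannot test the label. The median of probe sets without a gene name, a rough mark of dim signal, was 4.60 to 5.25 per array. On all arrays but BPN/3J replicate 6 at 26 weeks this mark was at most 4.85. All 12 thalamus genes were above that mark on each of 24 arrays, Neurod6 was at or below it on 22, Emx2 on 3 and Tbr1 on 2. Level differences between genes were not compared, since probes differ in response.

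Young BPH/2J mice had lower levels of all 12 thalamus genes than young BPN/3J mice. The 12 differences ran from -0.35 for Amotl1 to -2.01 for Prkcd on the log2 scale, with a median of -1.10, where the median over all genes was 0.01. In the limma fit over all genes, 4.42% of genes were called lower in BPH/2J at 6 weeks and 2.99% higher, at an adjusted p below 0.05. By list, 12 of 12 thalamus genes, 1 of 8 cortex genes, 0 of 4 striatum genes and 1 of 3 Zic genes were called lower, and 0 of all 27 were called higher. At an unadjusted p below 0.05, 15 of the 27 were lower and 1 was higher. The percentages of all genes given here and below are for the adjusted p. The share of all genes at the unadjusted threshold was not counted in any contrast.

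Tnnt1, which encodes the slow skeletal troponin T and is strongly expressed in thalamus, had the smallest p. Its log2 level ran from 6.53 to 7.59 with a median of 7.01 in BPH/2J, and from 8.17 to 8.85 with a median of 8.36 in BPN/3J (n = 6 per group). The groups did not overlap, and BPH/2J was lower by a log2 difference of -1.39 ± 0.14 (SE), a 2.61-fold difference with an adjusted p of 1.98e-07. Rora, a nuclear receptor of relay neurons, ran from 8.79 to 10.25 (median 9.38) in BPH/2J and from 10.39 to 10.68 (median 10.46) in BPN/3J, again without overlap. Its difference was -1.13 ± 0.17 (adjusted p = 6.52e-05). Plekhg1 ran from 7.20 to 9.63 (median 8.02) in BPH/2J and from 9.61 to 10.08 (median 9.71) in BPN/3J. The highest BPH/2J array lay just above the lowest BPN/3J array, and the difference was -1.62 ± 0.26 (adjusted p = 0.000206), or 3.08-fold.

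Kitl, the ligand of the KIT receptor, ran from 6.80 to 8.50 (median 7.35) in BPH/2J and from 8.35 to 9.03 (median 8.53) in BPN/3J. The groups overlapped in 1 BPH/2J array, and the difference was -1.13 ± 0.19 (adjusted p = 0.000271). Lef1, a partner of beta-catenin in Wnt signalling, ran from 6.92 to 8.09 (median 7.43) in BPH/2J and from 8.21 to 8.62 (median 8.32) in BPN/3J. Its groups did not overlap, and the difference was -0.95 ± 0.16 (adjusted p = 0.000326). Groups without overlap were thus found for Tnnt1, Rora and Lef1, 3 of 27 members, where 2.78% of all genes had BPH/2J wholly below BPN/3J.

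Upstream sequences are shown for 2 thalamus genes that were lower in BPH/2J without overlap, Tnnt1 and Lef1, and for Slc17a7, the cortex gene called lower (described further on), to let their promoters be compared. Each line gives the 250 bases before the RefSeq transcription start on the gene's strand, from the RefSeq promoter table of GRCm38.p6. Capitals mark the TATA box letters TATAAA and the GC box letters GGGCGG, on either strand.
Tnnt1 (chr7:4515976-4516225, minus strand): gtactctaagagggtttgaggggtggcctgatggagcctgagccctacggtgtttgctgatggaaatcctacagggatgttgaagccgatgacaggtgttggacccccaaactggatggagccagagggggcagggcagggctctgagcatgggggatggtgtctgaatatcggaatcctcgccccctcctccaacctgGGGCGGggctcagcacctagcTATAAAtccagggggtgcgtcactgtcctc
Lef1 (chr3:131110047-131110296, plus strand): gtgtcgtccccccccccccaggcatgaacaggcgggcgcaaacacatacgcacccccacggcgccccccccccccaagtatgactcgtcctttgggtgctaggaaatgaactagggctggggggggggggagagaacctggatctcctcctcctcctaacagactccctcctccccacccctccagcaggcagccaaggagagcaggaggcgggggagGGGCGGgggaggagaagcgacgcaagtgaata
Slc17a7 (chr7:45163671-45163920, plus strand): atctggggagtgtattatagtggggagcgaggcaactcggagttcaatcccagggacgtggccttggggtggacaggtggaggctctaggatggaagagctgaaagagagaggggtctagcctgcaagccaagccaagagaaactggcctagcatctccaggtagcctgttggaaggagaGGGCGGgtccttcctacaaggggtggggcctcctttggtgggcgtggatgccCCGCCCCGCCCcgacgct
The Tnnt1 window has TATAAA with its first base 30 bases before the start and 1 GC box. The Lef1 window has 1 GC box and the Slc17a7 window 3, and both hold 0 matches to TATAAA. The promoter table matched 25 of the 27 members, and Ppp1r1b and Zic2 had no entry. Over all windows of a gene, TATAAA (or TTTATA) was found in 7 of the 25 members and in 14.3% of 27025 genes, and GGGCGG (or CCGCCC) in 18 of 25 and in 35.4%. Of the members with TATAAA letters, only Tnnt1 and Kitl had them near the start, with first bases 30 and 25 bases before it. In Rgs9, Lef1, Synpo2, Tcf7l2 and Prkcd the first base was 195 to 244 bases before the start. The TCF/LEF letters CTTTGA (or TCAAAG) were found in Lamp5, Lef1, Prkcd and Tbr1, 4 of 25, and in 15.8% of all genes. The matches of Lef1 to these letters and to TTTATA were in another of its windows (chr3:131156044-131156293), not in the window printed. The bHLH E-box letters CAGATG (or CATCTG) were found in Neurod2, Pde10a and Rgs9, 3 of 25, and in 16.3% of all genes. The ROR half-site letters AGGTCA (or TGACCT) were found in 0 of 25 and in 15.8% of all genes. These counts describe letters in a window and carry no test.

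The other 7 thalamus genes were lower in BPH/2J at 6 weeks as well. The largest difference belonged to Prkcd, the gene of protein kinase C delta and a common label of relay neurons. It ran from 7.35 to 11.30 (median 9.47) in BPH/2J and from 10.94 to 11.66 (median 11.22) in BPN/3J, with a difference of -2.01 ± 0.40 (adjusted p = 0.00172), or 4.04-fold. The BPH/2J arrays were spread over almost the whole range of the gene, and only the highest of them reached the BPN/3J range. Gbx2, a homeobox factor that specifies thalamic neurons, differed by -0.62 ± 0.12 (adjusted p = 0.00172), and Tcf7l2, a Wnt-pathway factor of the same HMG-box family as Lef1, by -1.07 ± 0.21 (adjusted p = 0.00145). Ptpn3, a protein tyrosine phosphatase, differed by -1.43 ± 0.33 (adjusted p = 0.00577) and was the thalamus gene with the most probe sets. All 12 of its probe sets gave a difference between -0.94 and -1.55 at 6 weeks and between 0.03 and 0.30 at 26 weeks.

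Synpo2, an actin-binding protein, differed by -1.03 ± 0.23 (adjusted p = 0.00582). Rgs16, a GTPase-activating protein for G-protein alpha subunits, differed by -0.74 ± 0.20 (adjusted p = 0.021) and Amotl1, of the angiomotin family of junction proteins, by -0.35 ± 0.10 (adjusted p = 0.0342). The calls for Rgs16 and Amotl1 were the weakest of the 12. The Rgs16 call was lost when any of 3 single arrays was left out (adjusted p up to 0.0737), namely BPH/2J replicates 1 and 3 and BPN/3J replicate 5 at 6 weeks. The Amotl1 call was lost for 9 single arrays (adjusted p up to 0.0991), namely BPH/2J replicates 1, 3, 4, 5 and 6 and BPN/3J replicates 1, 2, 3 and 5 at 6 weeks.

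**Figure D1:**
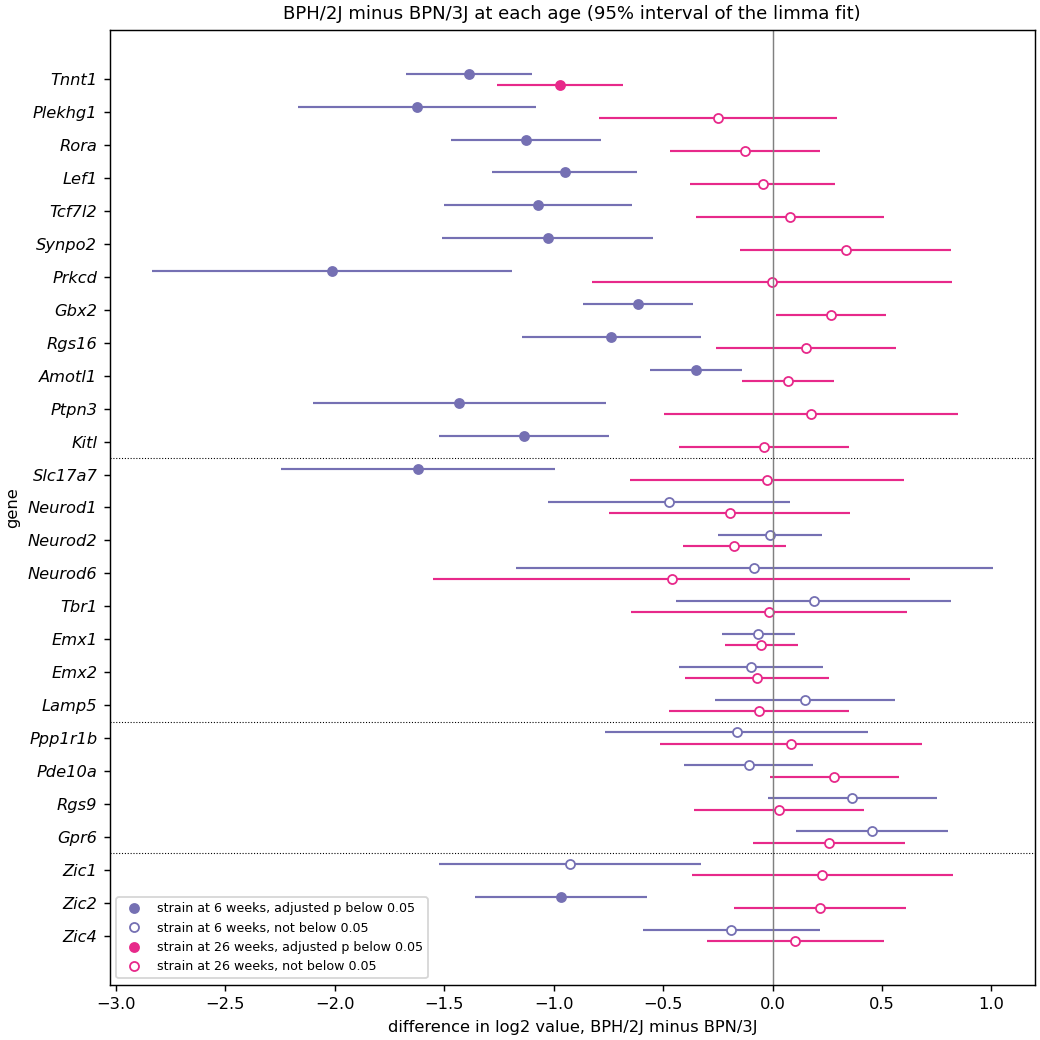
Difference in log2 value, BPH/2J minus BPN/3J, for each of the 27 genes at 6 and at 26 weeks, with the 95% interval of the limma fit (6 arrays per group, 24 arrays in the fit). Filled points have an adjusted p below 0.05: 14 genes at 6 weeks, among them all 12 thalamus genes, and Tnnt1 alone at 26 weeks.

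The 6 young BPH/2J mice did not share 1 level of the thalamus genes. The mean of the 12 genes on an array was 7.45, 9.21, 7.60, 8.08, 8.53 and 8.41 for BPH/2J replicates 1 to 6, while the BPN/3J arrays at 6 weeks lay between 9.22 and 9.62. Replicate 2 of BPH/2J was thus just under the lowest BPN/3J array, and replicates 1 and 3 were lowest. Replicate 2 was the highest BPH/2J array for 12 of the 12 genes, and for 9 of them it was at or above the lowest BPN/3J array. The other 5 BPH/2J arrays were below every BPN/3J array for all 12 thalamus genes. Without replicate 2, all 12 were still called lower, with differences from -0.41 for Amotl1 to -2.43 for Prkcd. Replicate 1 was the lowest BPH/2J array for 9 of the 12 genes, replicate 3 for 2 and replicate 4 for 1. Replicate numbers are names and carry no order.

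**Figure D2:**
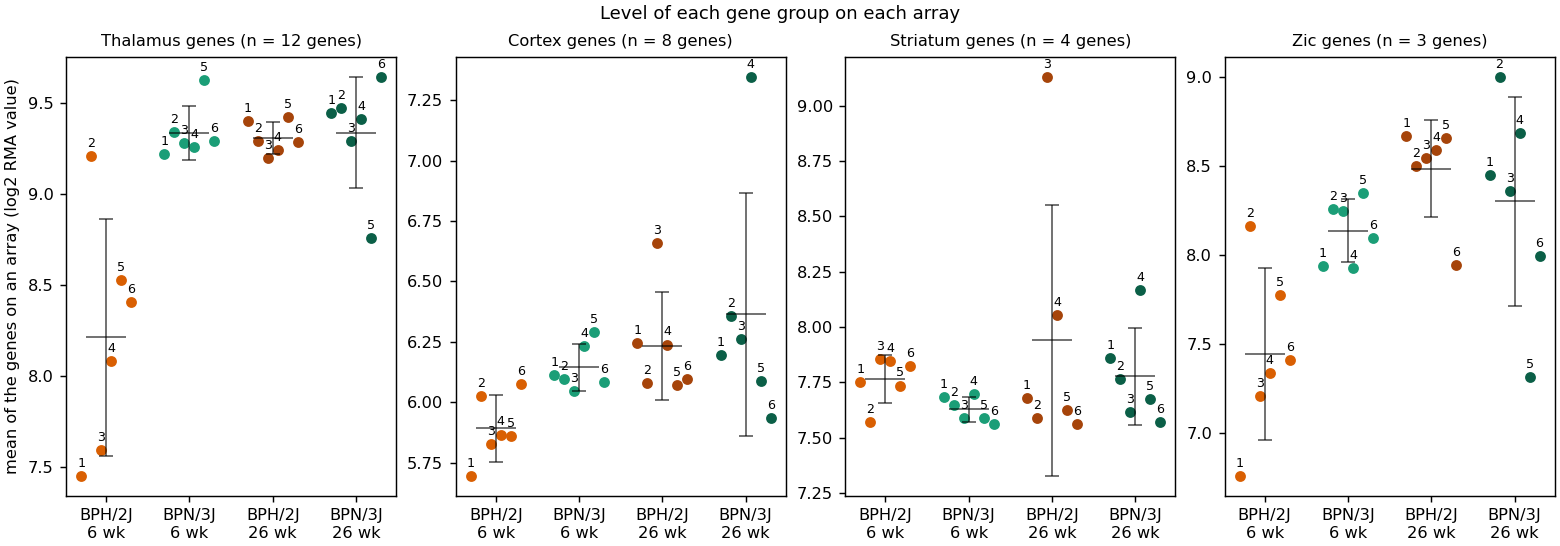
Mean log2 RMA value of the 12 thalamus, 8 cortex, 4 striatum and 3 Zic genes on each of the 24 arrays, by strain and age, with a separate vertical scale for each panel. Points are arrays labelled with their replicate number, and bars show the mean and SD of 6 arrays. In the thalamus panel the BPH/2J arrays at 6 weeks run from 7.45 to 9.21, and in the striatum panel BPH/2J replicate 3 at 26 weeks stands at 9.13.

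In a second list of 12 thalamus genes that are no members, 10 were called lower at 6 weeks and 0 higher. Their median difference was -0.87. Over all genes 4.42% were called lower. The lists of this paragraph were chosen with earlier results of these data known, so their directions are descriptive. The sodium channel subunit gene Scn4b had the smallest p among those called lower (-1.43 ± 0.25, adjusted p = 0.000484). Of the 6 habenula genes, 1 was called lower and 1 higher. Myelin genes were also lower in young BPH/2J mice, with 6 of 11 called and a median of -0.46, as were 3 of 5 pan-neuronal genes, with a median of -0.22. The part that these other cell types have in the differences of the thalamus genes was not tested.

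Genes of the hypothalamus differed in the opposite direction, on the same arrays. Of 21 hypothalamus genes, 12 were called higher in BPH/2J at 6 weeks and 0 lower, with a median difference of 0.66. Over all genes 2.99% were called higher, and this list too was chosen with earlier results known. The neuropeptide gene Gal differed by 1.56 ± 0.18 (adjusted p = 1.97e-06). The mean of the 21 genes was between 8.05 and 8.33 on 5 BPH/2J arrays, between 7.07 and 7.61 on the BPN/3J arrays, and 7.58 on BPH/2J replicate 2. The array of young BPH/2J mice with the highest level of thalamus genes therefore had the lowest level of hypothalamus genes in its group, inside the BPN/3J range for the latter. This opposite order rested on replicate 2. Among the other 5 arrays, replicate 5 was highest for both lists, at 8.53 for thalamus and 8.33 for hypothalamus genes. Replicate 3 was lowest of the 5 for hypothalamus genes, at 8.05, and had a low mean of thalamus genes, 7.60. The part that tissue makeup has in either list's differences was not tested.

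**Figure D3:**
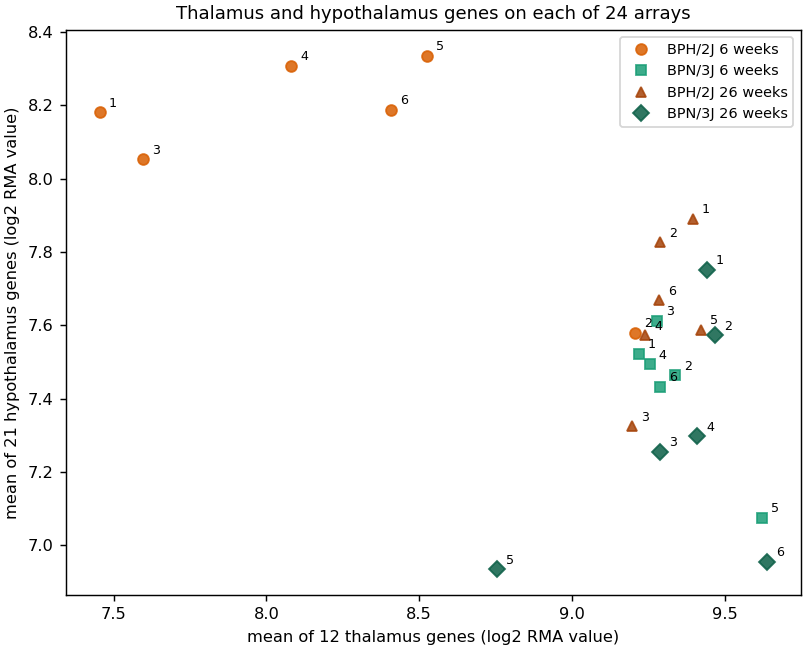
Mean log2 RMA value of 12 thalamus genes (horizontal axis) against the mean of 21 hypothalamus genes (vertical axis) on each of 24 arrays, with symbols for strain and age and replicate numbers beside the points. At the upper left are 5 BPH/2J arrays of 6 weeks, while replicate 2 of that group, at 9.21 and 7.58, sits among the other groups, and BPN/3J replicate 5 at 26 weeks is low on both axes (8.75 and 6.93).

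Slc17a7 was the 1 cortex gene called between strains at 6 weeks. It encodes the transporter that loads glutamate into synaptic vesicles, and it ran from 6.40 to 8.87 (median 7.42) in BPH/2J and from 8.73 to 9.76 (median 9.15) in BPN/3J. Only replicate 2 of BPH/2J reached the BPN/3J range. The difference was -1.62 ± 0.30 (adjusted p = 0.00105), or 3.08-fold, and it was -1.88 without that array.

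The other 7 cortex genes had differences between -0.47 and 0.19, and 0 of them passed the test in the fit over all arrays, also at an unadjusted p below 0.05. Neurod1, a bHLH factor of neuronal differentiation, ran from 4.86 to 5.54 (median 5.18) in BPH/2J and from 5.23 to 6.05 (median 5.59) in BPN/3J, with a difference of -0.47 (95% interval -1.02 to 0.08) and an adjusted p of 0.381, or of 0.0398 when only the 6-week groups were fitted. Its lowest BPH/2J value lay just above the mark of dim signal. Emx1, a homeobox factor of the dorsal telencephalon, ran from 6.53 to 6.68 (median 6.59) and from 6.55 to 6.83 (median 6.64), with a difference of -0.06 (-0.23 to 0.10). Lamp5, a membrane protein of cortical neurons, ran from 7.34 to 7.74 (median 7.60) and from 6.99 to 7.68 (median 7.44), with a difference of 0.15 (-0.26 to 0.56). The ranges of the strains overlapped for these 3 genes. Tbr1, a T-box factor of deep-layer neurons, had the interval -0.44 to 0.82, and Neurod2, a bHLH factor, -0.25 to 0.22. Emx2, the relative of Emx1, had -0.43 to 0.23, and Neurod6, another bHLH factor, was dim on most arrays and had -1.17 to 1.01. Of 10 other cortex and hippocampus genes, 3 were called lower and 1 higher.

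The 4 striatum genes gave no call between strains at 6 weeks, and their median difference was 0.13. Gpr6, an orphan receptor of striatal projection neurons, had the largest difference and ran from 7.08 to 7.83 (median 7.51) in BPH/2J and from 6.74 to 7.27 (median 7.12) in BPN/3J. Its difference of 0.45 ± 0.17 was below an unadjusted p of 0.05, but the adjusted p was 0.117. Rgs9, which shortens G-protein signals at dopamine receptors, ran from 7.85 to 8.44 (median 8.28) and from 7.71 to 8.08 (median 7.90), with a difference of 0.36 ± 0.19 (adjusted p = 0.317). For both genes, replicate 2 was the lowest BPH/2J array, at 7.08 and 7.85.

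Ppp1r1b, the gene of the dopamine-regulated phosphatase inhibitor DARPP-32, ran from 7.04 to 7.39 (median 7.31) in BPH/2J and from 7.21 to 7.64 (median 7.38) in BPN/3J. The phosphodiesterase gene Pde10a ran from 7.90 to 8.27 (median 7.99) and from 8.04 to 8.27 (median 8.19). Both genes overlapped between the strains, with differences of -0.16 (-0.76 to 0.44) and -0.11 (-0.40 to 0.19). Of 11 other striatum genes, 1 was called lower and 0 higher, with a median of -0.00.

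The Zic genes encode zinc-finger factors of dorsal and midline brain, found in adult septum, thalamus and cerebellum among other places. Zic2 was called lower in young BPH/2J mice: it ran from 6.76 to 8.29 (median 7.52) in BPH/2J and from 8.29 to 8.68 (median 8.54) in BPN/3J, with a difference of -0.97 ± 0.19 (adjusted p = 0.00163). Replicate 2 of BPH/2J touched the BPN/3J range and the other 5 arrays were below it. Zic1 ran from 7.46 to 9.60 (median 8.41) in BPH/2J and from 9.10 to 9.79 (median 9.50) in BPN/3J, and its difference of -0.93 ± 0.29 was just short of the threshold (adjusted p = 0.0507). Without BPH/2J replicate 2 it was -1.14, with an adjusted p of 0.00761.

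Zic4 ran from 6.04 to 6.62 (median 6.22) in BPH/2J and from 6.25 to 6.60 (median 6.46) in BPN/3J, with a difference of -0.19 (-0.59 to 0.22). The strains overlapped, and the second probe set of Zic4, which is dimmer, had a difference of 0.24. For all 3 Zic genes replicate 2 was the highest BPH/2J array, as it was for the thalamus genes.

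In adult mice, Tnnt1 was the 1 gene of the 27 called between strains. At 26 weeks 1.34% of all genes were called lower in BPH/2J and 1.32% higher, against 1 of 27 members lower and 0 higher. Tnnt1 ran from 7.50 to 7.73 (median 7.68) in BPH/2J and from 8.12 to 8.85 (median 8.68) in BPN/3J, without overlap, where 0.883% of all genes had BPH/2J wholly below BPN/3J. The difference was -0.97 ± 0.14 (adjusted p = 5.18e-05), or 1.96-fold, and with the 26-week arrays alone and the replicate number as a block its adjusted p was 0.00127. The lowest BPN/3J value, from replicate 5, was still above the highest BPH/2J value.

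The other 11 thalamus genes had differences between -0.25 and 0.33 at 26 weeks. At an unadjusted p below 0.05, 1 of the 27 was higher, Gbx2 (0.27 ± 0.12, adjusted p = 0.356). Prkcd, with the largest difference at 6 weeks, ran from 10.88 to 11.35 (median 11.13) in BPH/2J and from 10.74 to 11.80 (median 11.04) in BPN/3J, a difference of -0.00 (-0.82 to 0.82). Adult BPH/2J mice thus had Prkcd levels inside the BPN/3J range, with an interval that still spans large differences. The fit takes 1 spread per gene over all groups, and the SD of Prkcd was 1.47 in BPH/2J at 6 weeks. At 26 weeks the SD was 0.22 in BPH/2J and 0.36 in BPN/3J. The interval is thus wider than these adult groups alone would give. Slc17a7 differed by -0.02 (-0.65 to 0.60). The medians of the cortex, striatum and Zic genes were -0.07, 0.17 and 0.22. Among 12 other thalamus genes 0 were called at 26 weeks, and among 21 hypothalamus genes 2 were called higher.

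The difference between the 2 ages in the strain effect was tested directly as an interaction, defined as the strain difference at 26 weeks minus that at 6 weeks. It was positive for all 12 thalamus genes, from 0.42 for Amotl1 and Tnnt1 to 2.01 for Prkcd, with a median of 1.05. With all arrays, 0 of the 27 members passed the test, where 0.0251% of all genes were called lower and 0.00502% higher, 6 genes in all. At an unadjusted p below 0.05, 15 members were higher and 0 lower: all 12 thalamus genes, Slc17a7, Zic1 and Zic2. The lowest adjusted p was that of Gbx2 (0.88 ± 0.17, adjusted p = 0.0589). Tnnt1 had the highest of the 12 (0.42 ± 0.20, adjusted p = 0.443).

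The interaction calls moved with the arrays and settings used. Without BPH/2J replicate 2 of 6 weeks, 12 of the 27 members were called: 10 of 12 thalamus genes, all except Tnnt1 and Amotl1, together with Slc17a7 and Zic2. Prkcd then had an interaction of 2.43 (adjusted p = 0.00336) and Kitl of 1.31 (adjusted p = 0.000714), and 496 of all genes were called. Leaving out a library after its values were seen makes these values descriptive. With that array kept, 12 members were called with array weights (683 of all genes). A term for 2 sets of 26-week arrays gave 7 members (251 of all genes), and array medians subtracted gave 4 (82).

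**Figure D4:**
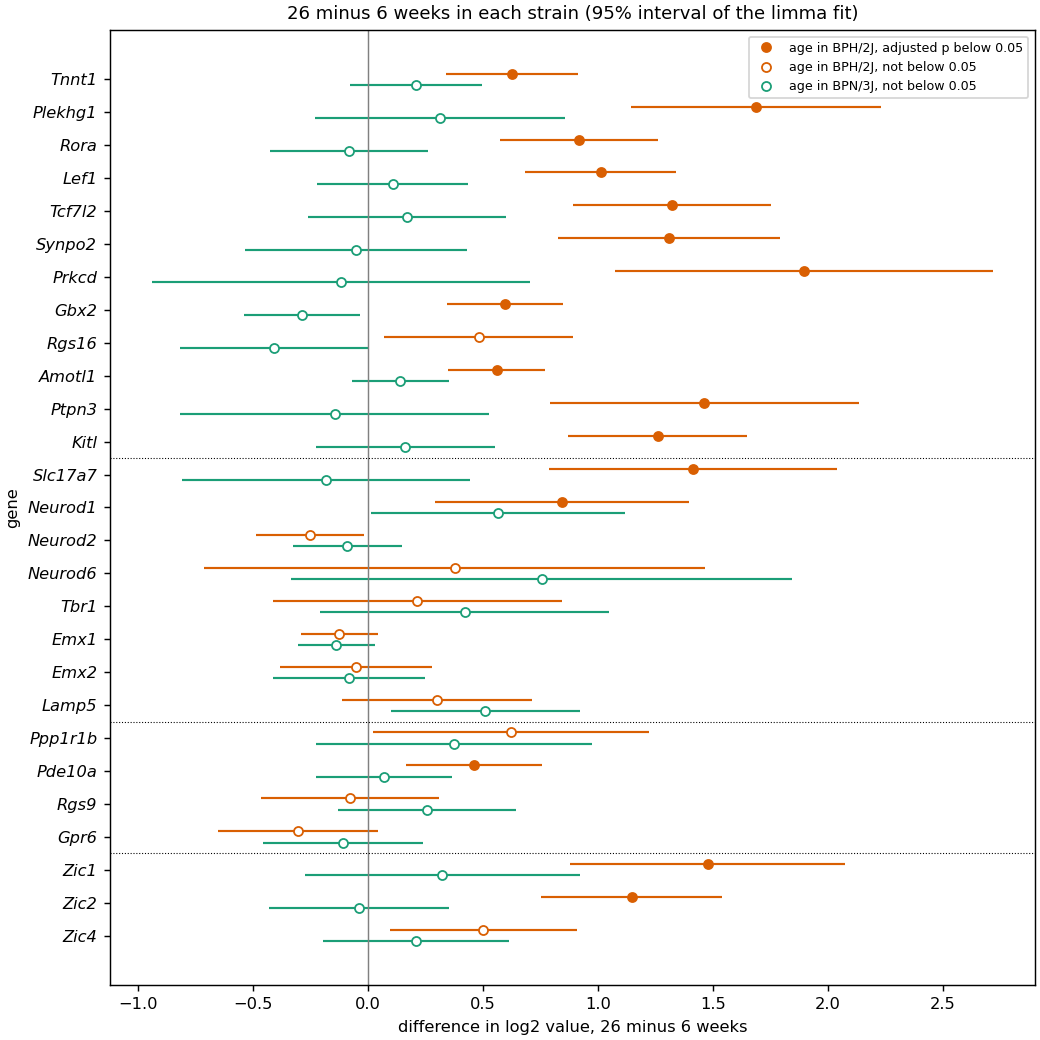
Difference in log2 value, 26 minus 6 weeks, for each of the 27 genes in BPH/2J and in BPN/3J, with the 95% interval of the limma fit. Filled points have an adjusted p below 0.05: 16 genes in BPH/2J, all higher at 26 weeks, and 0 in BPN/3J.

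Between 6 and 26 weeks, thalamus genes rose in BPH/2J. This comparison uses the same young BPH/2J arrays as the strain comparison at 6 weeks and the interaction, so these comparisons are not independent. In BPH/2J 8.23% of all genes were called higher at 26 weeks and 8.64% lower. Of the 27 members 16 were called higher and 0 lower: 11 of 12 thalamus genes, 2 of 8 cortex genes, 1 of 4 striatum genes and 2 of 3 Zic genes. At an unadjusted p below 0.05, 19 were higher and 1 lower, Neurod2. The median difference was 1.13 for the thalamus genes, where that of all genes was -0.03. The ages did not overlap for 6 members, Lef1, Tcf7l2, Amotl1, Kitl, Neurod1 and Zic2, where 1.47% of all genes lay wholly higher at 26 weeks.

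Among the thalamus genes Prkcd rose most, by 1.89 ± 0.40 (adjusted p = 0.0024), then Plekhg1 by 1.69 ± 0.26 (adjusted p = 0.000232). Plekhg1 ran from 9.59 to 10.01 (median 9.84) in adult BPH/2J mice, so that the highest young array overlapped the adult range. Tcf7l2 ran from 7.83 to 9.67 (median 8.72) at 6 weeks and from 9.90 to 10.19 (median 10.08) at 26 weeks, a rise of 1.32 ± 0.21 (adjusted p = 0.000258). Kitl ran from 8.55 to 8.78 (median 8.70) at 26 weeks, above all young arrays, a rise of 1.26 ± 0.19 (adjusted p = 0.000186). Lef1 ran from 8.29 to 8.61 (median 8.40) and rose by 1.01 ± 0.16 (adjusted p = 0.000266). Adult arrays of these 3 genes were all higher than the young ones.

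Ptpn3 ran from 7.53 to 10.65 (median 9.25) at 6 weeks and from 10.38 to 10.82 (median 10.55) at 26 weeks, and rose by 1.46 ± 0.33 (adjusted p = 0.00356). Synpo2 ran from 6.65 to 8.84 (median 7.71) and from 8.80 to 9.06 (median 8.99), and rose by 1.31 ± 0.23 (adjusted p = 0.000692). In both genes only the highest young array reached the adult range. Rora ran from 10.13 to 10.45 (median 10.28) in the adults and rose by 0.92 ± 0.17 (adjusted p = 0.00078). Tnnt1 rose by 0.63 ± 0.14 (adjusted p = 0.00355), to a level below that of BPN/3J at either age. Gbx2 ran from 6.47 to 7.20 (median 6.74) and from 6.99 to 7.74 (median 7.39), with overlap, and rose by 0.59 ± 0.12 (adjusted p = 0.00195). Amotl1 ran from 8.40 to 8.91 (median 8.55) and from 8.97 to 9.25 (median 9.18), without overlap, and rose by 0.56 ± 0.10 (adjusted p = 0.000812). Rgs16 differed by 0.48 ± 0.20 and did not pass (adjusted p = 0.0982), while without BPH/2J replicate 2 of 6 weeks it was 0.64 with an adjusted p of 0.0181.

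Slc17a7 rose by 1.41 ± 0.30 (adjusted p = 0.00275), from the young range given above to 8.46 to 9.50 (median 9.02). Neurod1 reached 5.63 to 6.68 (median 5.88) in the adults, all above the young arrays, with a rise of 0.84 ± 0.27 (adjusted p = 0.0319). This call was lost for 6 single arrays (adjusted p up to 0.0959), namely BPH/2J replicates 3 and 4 at 26 weeks and replicates 1, 3, 4 and 6 at 6 weeks. The lowest young value of Neurod1, 4.86 on replicate 6, was just above the mark of dim signal on that array, 4.81. Pde10a reached 8.20 to 9.41 (median 8.39), with a rise of 0.46 ± 0.14 (adjusted p = 0.028). Without BPH/2J replicate 3 at 26 weeks, its highest array, it was 0.28 (adjusted p = 0.0556), and without BPH/2J replicates 1, 3, 4 or 6 of 6 weeks the adjusted p was up to 0.0634.

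Zic1 rose by 1.48 ± 0.29 (adjusted p = 0.00146), to 9.39 to 10.27 (median 10.10), where 1 adult array overlapped the young range. Zic2 rose by 1.15 ± 0.19 (adjusted p = 0.000395), to 8.31 to 8.97 (median 8.69), and its ages did not overlap. Zic4 differed by 0.50 ± 0.20 (adjusted p = 0.08). Of the other lists in BPH/2J, 9 of 12 other thalamus genes were called higher at 26 weeks, 11 of 21 hypothalamus genes were called lower and 2 of 11 myelin genes were called lower.

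In BPN/3J, 0 of the 27 members were called between 6 and 26 weeks, where 7.66% of all genes were called lower and 4.6% higher. At an unadjusted p below 0.05, 1 member was lower, Gbx2 (-0.29 ± 0.12, adjusted p = 0.117), and 2 were higher, Neurod1 (0.56 ± 0.27, adjusted p = 0.161) and Lamp5 (0.51 ± 0.20, adjusted p = 0.0902). The median difference of the thalamus genes was 0.03, and their differences ran from -0.41 for Rgs16 to 0.31 for Plekhg1. Tcf7l2 ran from 9.52 to 10.04 (median 9.81) at 6 weeks and from 9.23 to 10.29 (median 10.09) at 26 weeks, with overlap and an interval of -0.26 to 0.60. Lef1 ran from 7.79 to 8.75 (median 8.58) at 26 weeks, which took in the whole young range. Without BPN/3J replicate 5 of 26 weeks, 2 members were called higher, Amotl1 (0.25, adjusted p = 0.0272) and Neurod1 (0.77, adjusted p = 0.0301). That fit called 4230 of all genes either way, against 2445 with all arrays. In BPN/3J 7 of 11 myelin genes were called lower with age.

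Single adult arrays carried other parts of the pattern. In BPN/3J at 26 weeks, replicate 5 was the lowest array for 12 of 12 thalamus genes and 3 of 3 Zic genes, with thalamus genes lower than the mean of the other 5 arrays by a median difference of -0.71. Zic1 on that array was 8.53, where the other 5 ran from 9.48 to 10.51, and Zic4 was 5.69, where they ran from 6.14 to 7.41. Its mean of hypothalamus genes was 6.93, the lowest of its group as well, and its mean of 11 myelin genes was 10.22, the highest. Replicate 6 of the same group had nearly the same mean of hypothalamus genes, 6.95, with the highest mean of thalamus genes in the group, 9.64. That array also had the highest median of probe sets without a gene name, 5.25.

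Striatum genes stood out on 1 array. BPH/2J replicate 3 at 26 weeks had the highest value of all 24 arrays for 4 of 4 striatum genes. Ppp1r1b was 9.73 there and 7.09 to 8.38 on the other 5 arrays of the group. Pde10a was 9.41 against 8.20 to 8.54, Rgs9 was 9.30 against 7.62 to 8.25, and Gpr6 was 8.08 against 6.95 to 7.14. The 11 other striatum genes had a mean of 9.04 on this array, against 8.19 to 8.40 on the others of the group. Neurod6 was 5.96, against 3.18 to 3.61. The mean of 7 choroid plexus genes was 8.63, also the highest of its group, where replicate 4 was at 7.83.

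Cortex genes stood out on another. BPN/3J replicate 4 at 26 weeks was the highest of its group for 6 of 8 cortex genes and 4 of 4 striatum genes. Neurod6 was 7.69 there and 3.30 to 4.09 on the other 5 arrays, and Tbr1 was 7.27 against 4.63 to 6.04. For the Zic genes, BPN/3J replicate 2 at 26 weeks was the highest of 24 arrays for 3 of 3, with Zic1 at 10.51, Zic2 at 9.08 and Zic4 at 7.41. Choroid plexus genes were high on these 2 arrays too, at 8.50 and 8.85. Replicate 3 of the group was at 7.77, and the rest ran from 5.92 to 6.66. Neurod1 was also highest on replicates 4 and 2, at 7.12 and 7.29, where the other 4 arrays ran from 5.17 to 6.14. The part of neighbouring tissue in these values was not tested.

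**Figure D5:**
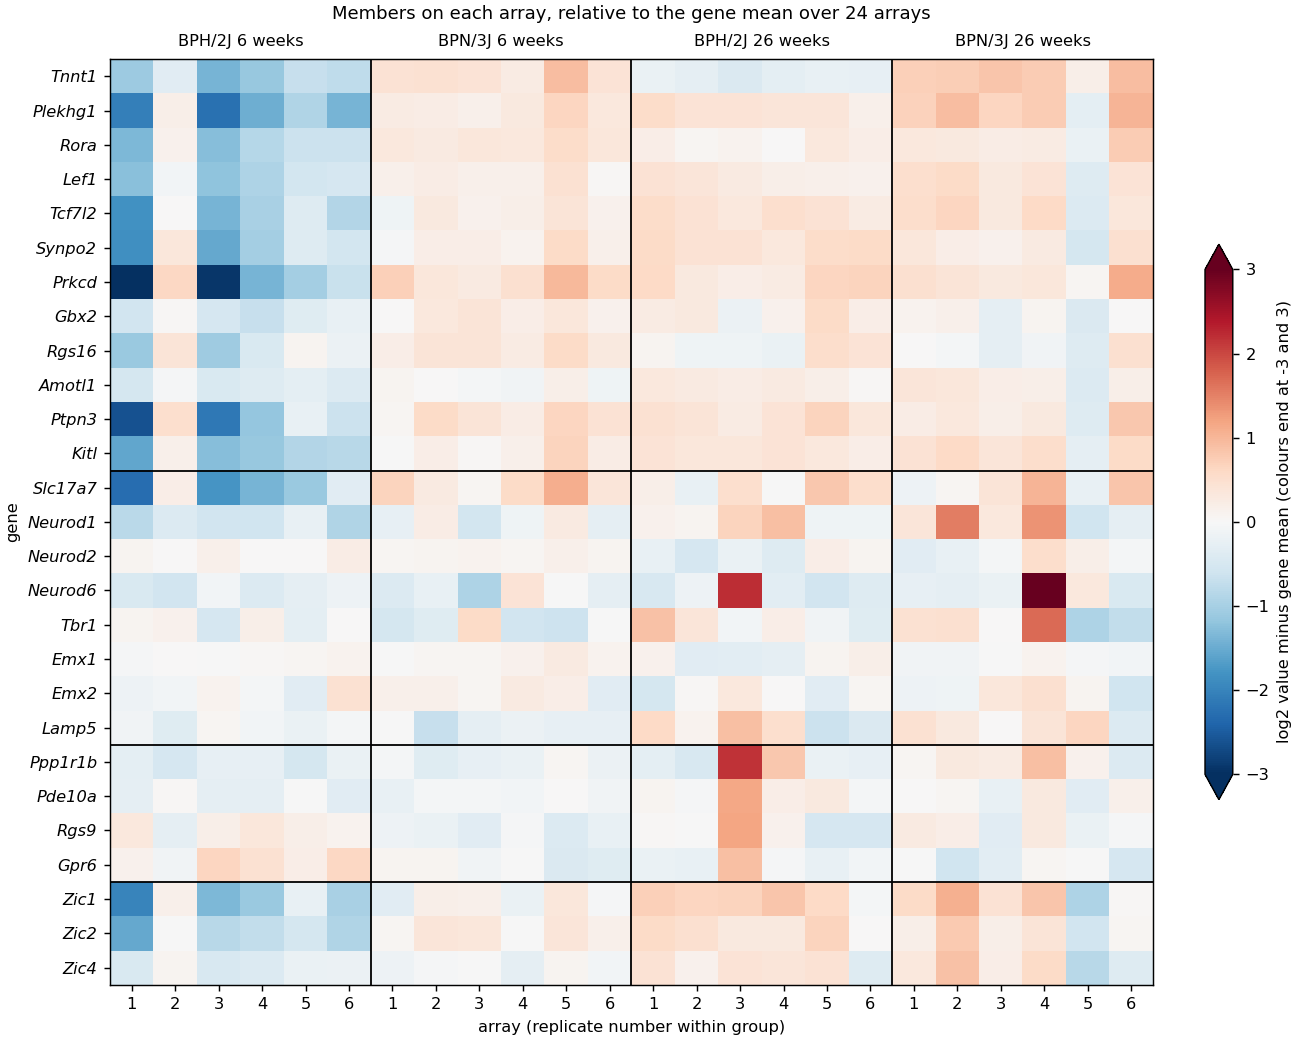
Log2 value of each of the 27 genes on each of 24 arrays minus the mean of that gene over the 24 arrays, with genes in rows (thalamus, cortex, striatum and Zic genes from top to bottom) and arrays in columns by group. Blue is below and red above the gene's mean, and colours end at 3 log2 units on either side. Low thalamus genes fill the columns of young BPH/2J mice except replicate 2, and single dark cells mark Ppp1r1b and Neurod6 on BPH/2J replicate 3 and Neurod6 on BPN/3J replicate 4, both at 26 weeks.

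The spread between mice differed by group and by gene list. The median SD of the thalamus genes was 0.60 in BPH/2J at 6 weeks, 0.17 in BPN/3J at 6 weeks, 0.12 in BPH/2J at 26 weeks and 0.34 in BPN/3J at 26 weeks, where that of all genes was 0.14, 0.10, 0.16 and 0.18. The SD was largest in young BPH/2J mice for 11 of 12 thalamus genes. It was largest in adult BPH/2J mice for 4 of 4 striatum genes and in adult BPN/3J mice for 5 of 8 cortex genes. The limma fit takes 1 spread per gene over all groups, so its standard errors average over groups that varied unequally. For Prkcd, the standard error is thus smaller at 6 weeks and larger at 26 weeks than the groups compared alone would give.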

How the data were processed

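RNA from the hypothalamus of 24 mice was measured on Affymetrix Mouse Gene 1.0 ST arrays, 1 per mouse. The authors deposited log2 values for 34760 probe sets, and RMA and limma are the tools listed, per the submitters' processing notes. For these tools no version is given in the sources used here. RMA makes the distributions of probe intensities equal between arrays before probe sets are summarised, so a difference is relative to the rest of the array. The medians of the deposited values still ran from 5.89 to 6.09. Titles of the samples gave group and replicate number. The labels' name BPN/3J was kept where the design text has another suffix. The platform annotation gave 1 symbol to 21640 probe sets, several to 1321 and none to 11799, and the 21640 covered 19937 genes, each represented by its brightest probe set.

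A limma 3.58.1 fit (R 4.3.3) with a mean per group used all 24 arrays and left 20 residual degrees of freedom. Its 5 contrasts were strain within each age, age within each strain, and their interaction. P-values were two-sided and adjusted by Benjamini-Hochberg over 19937 genes in each contrast, with a threshold of 0.05. Standard errors and 95% intervals are those of the moderated fit. The code was tested on simulated data. The members and the comparison lists were chosen with earlier results of these data known, and all members are accounted for. Lowest, median and highest values are given for the members with the smallest p at 6 weeks in each list (up to 5 thalamus, 4 cortex and 4 striatum genes, and all Zic genes) and for members called elsewhere. List means carry no test between groups, and Dixon's test was applied to them only to flag single arrays. No 2 arrays of a group were duplicates (mean absolute differences of at least 0.12).

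Same-numbered arrays of the 2 strains at 26 weeks deviated together from their group means. The correlations were 0.13 to 0.44, with 6 of 6 pairs over 0.1, though only 3 of 6 matched best with their own number. In the other pairs of groups 0 to 4 of 6 pairs were over 0.1, short of the rule that all be. The 4 were for BPH/2J at 6 against 26 weeks. The number thus met the rule for a pairing at 26 weeks only. The main fit had no block. As an alternative, the number was fitted as a block over all arrays. That fit also blocked the 6-week arrays, which fell short of the rule. Alternatives were the groups compared alone, mean of probe sets, removal of the dimmest 25% of genes, array medians subtracted, a trended robust prior, array weights, the block and each array left out. After seeing the data, 4 were added: a term for 2 sets of 26-week arrays (replicates 5 and 6 of both strains against the rest, which separated on the first component with 41.9% of the variance), 2 pairs of arrays left out, and the 26-week arrays alone with the block. Promoter windows came from RefSeq.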

Additional observations from a re-analysis of the deposited data

Results flagged for a closer look

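Single arrays stood far from the other 5 of their group, by Dixon's test, for 23 of 124 groups of 6 values (27 genes and the 4 list means, in 4 groups). Chance alone flags about 1 group in 20, and genes of a list are not independent of each other or of their list mean. BPN/3J replicate 5 accounted for 7 at 26 weeks, all low, and the array named replicate 5 at 6 weeks, another mouse, for 5, all high. At 26 weeks the low values of BPN/3J replicate 5 were 8.12 for Tnnt1, 9.15 for Plekhg1, 7.79 for Lef1, 9.23 for Tcf7l2, 7.95 for Synpo2, 8.52 for Amotl1 and 8.08 for Kitl. At 6 weeks the high values were 8.85 for Tnnt1, 10.08 for Plekhg1, 10.68 for Rora and 9.03 for Kitl, with a mean of thalamus genes of 9.62.

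BPH/2J replicate 3 at 26 weeks accounted for 5, all high: 5.96 for Neurod6, 9.41 for Pde10a, 8.08 for Gpr6, and list means of 6.66 for the cortex genes and 9.13 for the striatum genes. BPN/3J replicate 4 at 26 weeks accounted for 2, Neurod6 at 7.69 and the mean of cortex genes at 7.35. BPH/2J replicate 6 at 26 weeks was low for Zic1 at 9.39 and for the mean of the Zic genes at 7.95. Emx2 was low at 4.74 on BPN/3J replicate 6 and Lamp5 was low at 6.99 on BPN/3J replicate 2, both at 6 weeks. BPH/2J replicate 2 at 6 weeks, which was highest in its group for all 12 thalamus genes, was not among the 23, since the other 5 arrays were themselves widely spread.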

How the results depend on the processing

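Of the 31 values of single members that were called, 27 stayed called under every alternative; the exceptions were Rgs16 and Amotl1 at 6 weeks and Neurod1 and Pde10a with age in BPH/2J. No value of a called member changed sign, while 31 of 104 uncalled values did under some alternative. With single arrays left out, members called lower at 6 weeks numbered 12 to 15 (main 14), higher at 6 weeks 0 to 1, lower at 26 weeks 1 to 1, and higher with age in BPH/2J 14 to 18 (main 16). With single arrays left out, the interaction gave 0 to 12 members higher, age in BPH/2J 0 to 1 lower, and age in BPN/3J 0 to 2 higher. With only the groups compared, 16 members were called lower at 6 weeks, with Neurod1 and Zic1 added. Members called higher at 6 weeks (main 0) numbered 2 with only the groups compared or with array weights. They numbered 1 without both BPN/3J replicate 5 of 26 weeks and BPH/2J replicate 2 of 6 weeks (the first pair). They also numbered 1 without both BPH/2J replicate 3 and BPN/3J replicate 4 of 26 weeks (the second pair). Over all genes, 1479 were called either way at 6 weeks in the main fit. The settings just named called 2322, 3725, 2116 and 1453 genes, in that order. The interaction (main 0, with 6 of all genes) gave 1 without the dimmest 25% of genes (23 of those kept). It gave 4 with array medians subtracted (82 of all genes), 1 with a trended robust prior (31) and 12 with array weights (683). It gave 7 with the term for the 26-week sets (251), 13 without the first pair of arrays (691) and 1 without the second (3). Age in BPH/2J gave 1 member lower with array weights, the set term or the second pair left out (main 0). Over all genes, age in BPH/2J called 7475, 7479 and 2329 under these settings, against 3362 in the main fit. Age in BPN/3J (main 0) gave 1 lower and 1 higher with only the groups compared (2375 of all genes called). With the set term it gave 1 lower and 4 higher (7325), with array weights 5 higher (6416) and without the first pair 4 higher (4303). The main fit called 2445 of all genes. With the replicate block, the interaction gave 1 member higher, Gbx2 (27 of all genes called). The strain contrast at 6 weeks gave 15 lower with the block, with Zic1 added (1556 of all genes called). The block changed no other call of a member. The causes of these changes were not tested. Subtracting array medians moved the median of all genes by less than 0.1.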
